A study of Mus musculus with 12 samples.

Results

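The 10 genes described here build and regulate the MHC class I antigen presentation pathway in the lens epithelial cells (LCs) that stay on the mouse lens capsule after cataract surgery. They are H2-K1, H2-D1, B2m, Tap1, Tap2, Tapbp, Psmb8, Psmb9, Psmb10 and Nlrc5, chosen by name as the genes with these symbols among the 45859 listed. RNA was sequenced from capsules with attached LCs of adult, 2 month old mice, with 3 libraries in each of 4 groups, at 0 h and 24 h post cataract surgery (PCS). The wild type (WT) groups were C57BL/6. The β8ITG-cKO groups were of a strain labelled Mixed (C57BL/6, 129S1/Sv) and lacked the β8 integrin gene, Itgb8, in the lens, where the lens-specific MLR10-Cre transgene deletes a floxed part of it. Each library pooled several capsules, and all 4 groups had the fiber cells removed through a corneal incision. Strain and deletion always went together, so their effects cannot be told apart in any comparison of the genotypes.

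MHC class I molecules show short peptides made inside a cell to CD8 T cells and natural killer cells. The proteasome cuts proteins into peptides, the TAP transporter carries these into the endoplasmic reticulum, and there tapasin helps to load them onto a heavy chain paired with β2-microglobulin. Most cells keep this pathway at a low level and raise it under interferons or NF-κB signaling, partly through the transactivator NLRC5, while the lens, which has no blood vessels, is known for little class I at rest.

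Expression is given as FPKM, the fragments of a transcript scaled by its length and by the size of the library, which allows levels to be compared between genes. Differences are on the log2(FPKM + 1) scale, which understates changes of low genes, and a gene passed at a limma-trend adjusted p (Benjamini-Hochberg) of at most 0.05. The FPKM of a library summed to 446531 to 740140, the 10 highest genes took 36.0 to 49.6% of that, and relative depths estimated from the steps between low values ran from 0.876 to 1.1. The 8 lens markers were found in every library, except that WT 0 h replicate 2 listed 0 for Cryaa, and its 8 retina markers also summed to 1116 FPKM against 329 and 135 in the other WT 0 h libraries. Itgb8 itself ranged from 7.26 to 10.8 FPKM in WT and from 4.58 to 7.31 in β8ITG-cKO at 0 h, with a difference of -0.45 (SE 0.19, adjusted p = 0.209), and from 8.38 to 9.58 against 9.28 to 11.8 at 24 h. These FPKM cover the whole gene, the undeleted exons included, so they do not check the genotype labels.

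Tapbp, H2-K1, Psmb9, Tap1, Psmb8, Tap2 and H2-D1 lie together in the MHC on chromosome 17. In the GRCm38 annotation H2-K1 is at chr17:33996017-34000347 on the minus strand and H2-D1 at chr17:35262730-35267499 on the plus strand. B2m lies at chr2:122147686-122153083, and Psmb10 and Nlrc5 lie apart from each other on chromosome 8. The DNA just upstream of 4 starts is shown because it carries the elements through which class I genes are known to be switched on. Each stretch is from RefSeq (GRCm38.p6) and written 5′ to 3′, with matches in capitals to the interferon regulatory factor (IRF) element GAANNGAAA, the NF-κB motif, the X2 core TGACG and the Y box CCAAT. The starts are those of RefSeq, and for H2-D1 that start lies downstream of the one in the GRCm38 annotation, so the stretch shown falls within the span just given for the gene. H2-K1 is the 200 bases before its start (chr17:34000348-34000547, minus strand), H2-D1 (chr17:35262894-35263093, plus strand) and B2m (chr2:122147487-122147686, plus strand) likewise, and the last is the 225 bases that separate the starts of Psmb9 and Tap1, which point away from each other (chr17:34187331-34187555, plus strand).
H2-K1: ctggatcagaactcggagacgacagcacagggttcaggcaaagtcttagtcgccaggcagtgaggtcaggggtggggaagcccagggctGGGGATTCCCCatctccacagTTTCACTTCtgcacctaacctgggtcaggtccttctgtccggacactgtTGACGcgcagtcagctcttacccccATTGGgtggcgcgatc
H2-D1: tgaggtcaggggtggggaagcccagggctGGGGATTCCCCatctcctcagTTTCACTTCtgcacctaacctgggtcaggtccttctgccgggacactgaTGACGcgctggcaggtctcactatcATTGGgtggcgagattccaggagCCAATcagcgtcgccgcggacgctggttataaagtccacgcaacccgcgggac
B2m: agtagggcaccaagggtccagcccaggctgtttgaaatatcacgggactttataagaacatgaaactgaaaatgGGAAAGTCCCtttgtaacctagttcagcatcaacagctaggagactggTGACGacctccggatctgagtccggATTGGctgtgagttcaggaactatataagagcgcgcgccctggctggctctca
Tap1 and Psmb9: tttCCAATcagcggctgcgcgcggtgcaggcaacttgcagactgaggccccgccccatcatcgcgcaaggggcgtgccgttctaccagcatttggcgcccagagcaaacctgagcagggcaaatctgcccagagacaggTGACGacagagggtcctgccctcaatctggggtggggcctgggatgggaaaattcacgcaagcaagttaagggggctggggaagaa

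Both heavy chain promoters held the NF-κB motif, IRF element, X2 core and Y box in the same order and at the same spacing. The NF-κB and IRF matches began 21 bases apart, the IRF and X2 matches 49 and the X2 and Y box matches 25 in H2-K1 as well as in H2-D1. When the promoters were aligned on the IRF element, 119 of 129 bases were identical. All 4 motifs were found together in 14 of 27025 RefSeq promoters of 300 bases (250 before and 50 after the start), searched on both strands, which is 0.0518%, and H2-K1 and H2-D1 were among them. B2m held NF-κB, X2 and Y box matches, and the stretch between Tap1 and Psmb9 an X2 and a Y box match, but no IRF element in these letters. The B2m stretch does hold gaaactgaaa just before its NF-κB match, a longer form that was not searched for. The counts of the IRF element therefore hold for GAANNGAAA only. Of the 8 pathway genes in the promoter table, 2 had the IRF element (7.56% of all promoters), 3 the NF-κB motif (8.19%), 5 the X2 core (20.9%) and 6 the Y box (38%). Tap2 and Nlrc5 were not in the table.

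In WT LCs at 0 h, Tapbp was the most abundant of the 10 genes, at 35.2 ± 3.70 FPKM (SD, n = 3), above H2-K1 at 21.6 ± 6.50 and B2m at 20.5 ± 5.45, whose ranges overlapped each other. H2-D1 followed at 10.5 ± 0.696 FPKM and Tap2 at 4.60 ± 0.745, each apart from its neighbors in the order. Psmb8, Psmb10 and Tap1 lay between 1.35 and 3.29 FPKM in every WT 0 h library, and each overlapped the next in the order. Psmb9 and Nlrc5 were the lowest in all 4 groups, below 1 FPKM in every library at 0 h. The order changed in β8ITG-cKO LCs at 0 h, where H2-D1 had the highest mean (41.4 ± 4.17 FPKM), although it overlapped Tapbp at 38.2 ± 3.78. At 24 h, H2-K1, B2m and Tapbp led in WT with neighboring ranges overlapping, and in β8ITG-cKO H2-D1 was apart from and above B2m, H2-K1 and Tapbp.

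**Figure D1:**
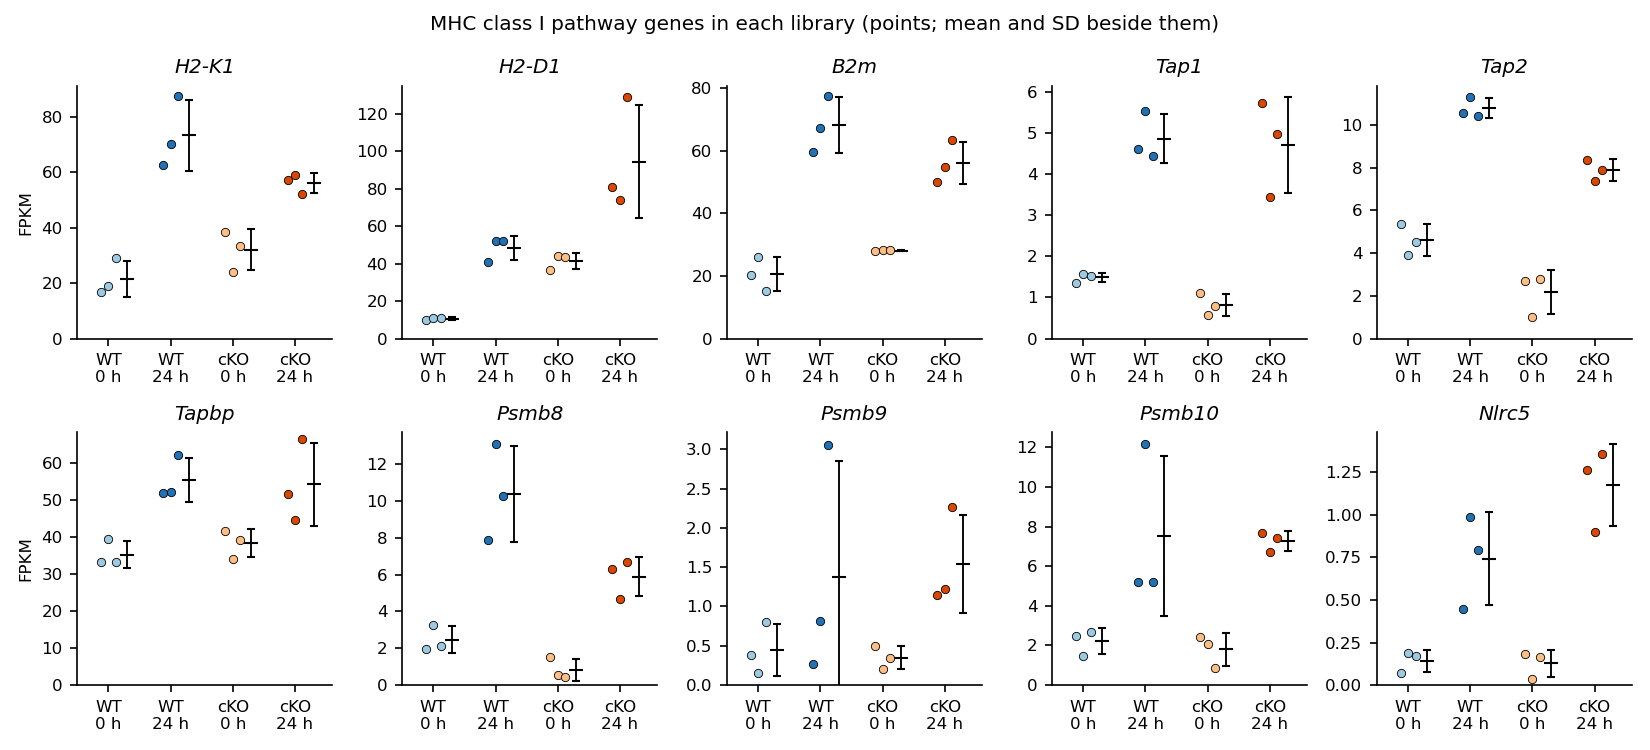
FPKM (y axis, each panel from 0 on its own scale) of the 10 pathway genes in the 12 libraries, by genotype and hours PCS (x axis); points are libraries, and the dash and bar beside them are the mean and SD of 3 libraries, cut at 0 where the SD passes it. All 3 libraries at 24 h lie above all 3 at 0 h for 9 genes in WT and for 10 in β8ITG-cKO, and H2-D1 starts at about 40 FPKM in β8ITG-cKO against about 10 in WT.

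The comparison of 24 h with 0 h asked how the pathway changed after surgery within each genotype. In WT LCs, 8 of the 9 genes tested rose, where 20.9% of all 15146 genes tested passed as higher (29.7% in either direction). Their median difference, Psmb9 included, was 1.33 against 0.16 over all genes tested. In β8ITG-cKO LCs all 10 genes were tested and 10 rose, where 35.4% of all 15237 genes passed as higher (46.1% in either direction), with a median of 1.05 against 0.23. The ranges at 24 h lay wholly above those at 0 h for 8 of the 9 genes tested in WT (31.3% of all genes tested) and for 10 of 10 in β8ITG-cKO (42.9%). With the size criteria of the study added (means over 2-fold and 2 FPKM apart), 7 of 9 and 5 of 10 genes passed as higher, against 10.3% and 11.3% of all genes. With every library rescaled to the same median FPKM, all genes split into 2199 higher and 2447 lower in WT, against 3165 and 1335 as deposited, and into 3217 and 3008 in β8ITG-cKO, against 5394 and 1636. In that scaling 7 of 9 and 9 of 10 pathway genes still rose. Nlrc5 was left out of the WT test by the filter on low values, which kept genes whose average over the 6 libraries reached 0.5 FPKM. In bulk RNA, a change in the number of cells of a type and a change in RNA per cell cannot be told apart.

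Among the class I chains, the heavy chain gene H2-K1 read 16.7, 19.1 and 29.0 FPKM in WT at 0 h and 62.4, 70.3 and 87.5 at 24 h. In β8ITG-cKO it read 38.6, 23.9 and 33.5 FPKM at 0 h and 57.1, 59.0 and 52.0 at 24 h. The groups did not overlap in time in either genotype, and the mean rose 3.40-fold in WT and 1.75-fold in β8ITG-cKO. The log2 differences were 1.74 (SE 0.23, adjusted p = 0.00188, limma-trend) and 0.81 (SE 0.17, adjusted p = 0.00561).

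H2-D1, the other classical heavy chain gene of C57BL/6, read 9.77, 10.7 and 11.1 FPKM in WT at 0 h and 40.9, 52.3 and 51.9 at 24 h. In β8ITG-cKO it read 36.6, 44.0 and 43.5 FPKM at 0 h and 80.7, 73.8 and 128.9 at 24 h. The times did not overlap in either genotype, the range of WT at 24 h overlapped that of β8ITG-cKO at 0 h, and replicate 3 of β8ITG-cKO at 24 h stood above the other 2. The mean rose 4.59-fold in WT (log2 difference 2.09, SE 0.15, adjusted p = 0.000172, limma-trend) and 2.28-fold in β8ITG-cKO (1.13, SE 0.20, adjusted p = 0.00311).

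B2m, which encodes the light chain needed by every class I molecule at the cell surface, read 20.4, 26.1 and 15.2 FPKM in WT at 0 h and 59.7, 67.2 and 77.5 at 24 h. In β8ITG-cKO it read 27.9, 28.1 and 28.3 FPKM at 0 h and 50.1, 54.7 and 63.5 at 24 h. The times did not overlap in either genotype. The mean rose 3.32-fold in WT (log2 difference 1.71, SE 0.21, adjusted p = 0.00149, limma-trend) and 2.00-fold in β8ITG-cKO (0.97, SE 0.11, adjusted p = 0.000297).

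Tap1, a subunit of the peptide transporter, read 1.35, 1.58 and 1.53 FPKM in WT at 0 h and 4.62, 5.55 and 4.44 at 24 h, and in β8ITG-cKO 1.11, 0.569 and 0.783 at 0 h and 5.74, 3.44 and 4.97 at 24 h. The values at 24 h were several times those at 0 h in each genotype without overlap. The log2 difference was 1.24 in WT (SE 0.15, adjusted p = 0.00163, limma-trend) and 1.64 in β8ITG-cKO (SE 0.19, adjusted p = 0.000384), or 3.27-fold and 5.76-fold by the means. Tap2, the other subunit, read 5.38, 3.90 and 4.51 FPKM in WT at 0 h and 10.6, 11.3 and 10.4 at 24 h, and in β8ITG-cKO 2.70, 0.997 and 2.81 at 0 h and 8.37, 7.38 and 7.90 at 24 h. It was higher than Tap1 in each of the 12 libraries.

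Tapbp encodes tapasin, which bridges TAP and the empty class I molecule. It read 33.1, 39.5 and 33.1 FPKM in WT at 0 h and 51.9, 52.0 and 62.1 at 24 h, and in β8ITG-cKO 41.5, 34.1 and 39.1 at 0 h and 51.6, 44.5 and 66.4 at 24 h. The ranges did not overlap in time, but this was the smallest rise of the 10 genes by the means, 1.57-fold in WT (log2 difference 0.64, SE 0.15, adjusted p = 0.0155, limma-trend) and 1.42-fold in β8ITG-cKO (0.48, SE 0.15, adjusted p = 0.037). With all libraries rescaled to the same median FPKM the differences of Tapbp did not pass, at 0.38 (adjusted p = 0.0853) and 0.18 (adjusted p = 0.311). The Tapbp call was also lost in WT without 0 h replicate 1 or 3 (adjusted p = 0.0761 and 0.0532), and in β8ITG-cKO without 0 h replicate 2 or 3 (0.113 and 0.0823) or 24 h replicate 1 or 3 (0.0679 and 0.0757). Tap2 rose by 1.08 in WT (SE 0.15, adjusted p = 0.0024) and by 1.54 in β8ITG-cKO (SE 0.24, adjusted p = 0.00162).

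The inducible proteasome subunits replace 3 constitutive ones in the immunoproteasome and change the peptides that are cut. Psmb8 (β5i) read 1.94, 3.29 and 2.14 FPKM in WT at 0 h and 7.86, 13.1 and 10.3 at 24 h, and in β8ITG-cKO 1.52, 0.518 and 0.435 at 0 h and 6.30, 4.69 and 6.66 at 24 h. Psmb10 (β2i) read 2.46, 1.49 and 2.70 FPKM in WT at 0 h and 5.22, 12.2 and 5.18 at 24 h, and in β8ITG-cKO 2.45, 2.08 and 0.863 at 0 h and 7.69, 6.71 and 7.40 at 24 h. Both were higher in every library at 24 h than in any at 0 h, and WT 24 h replicate 2 was the highest for each. The log2 difference of Psmb8 was 1.72 in WT (SE 0.22, adjusted p = 0.00195, limma-trend) and 1.95 in β8ITG-cKO (SE 0.23, adjusted p = 0.000465). For Psmb10 it was 1.33 in WT (SE 0.32, adjusted p = 0.0183) and 1.61 in β8ITG-cKO (SE 0.22, adjusted p = 0.00091), and the WT call was lost without WT 0 h replicate 2 (adjusted p = 0.0599).

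Psmb9 (β1i) was the exception in WT, at 0.384, 0.150 and 0.800 FPKM at 0 h and 0.268, 0.813 and 3.06 at 24 h. These ranges overlapped, with WT 24 h replicate 1 below 2 of the 0 h libraries, and the log2 difference was 0.57 (95% interval -0.39 to 1.52, adjusted p = 0.326, limma-trend). In β8ITG-cKO it read 0.499, 0.205 and 0.339 FPKM at 0 h and 1.14, 1.22 and 2.26 at 24 h, and rose by 0.89 (SE 0.19, adjusted p = 0.00733), a call lost in 1 fit over all 12 libraries (adjusted p = 0.0602). Psmb9 and Tap1 start 225 bases apart, on the stretch printed above, and in WT 24 h replicate 1 Tap1 read 4.62 FPKM beside 0.268 for Psmb9. The difference between the genotypes in the rise of Psmb9 was 0.33 (95% interval -0.76 to 1.42, adjusted p = 0.741).

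Nlrc5, the class I transactivator, had the lowest mean of the 10 genes in every group. It read 0.0692, 0.186 and 0.171 FPKM in WT at 0 h and 0.450, 0.987 and 0.794 at 24 h, without overlap, and was not tested there. In β8ITG-cKO it read 0.182, 0.0376 and 0.162 FPKM at 0 h and 1.26, 0.901 and 1.36 at 24 h. That was 5.23-fold in WT and 9.21-fold in β8ITG-cKO by the means, with a log2 difference of 0.94 in β8ITG-cKO (SE 0.15, adjusted p = 0.0016, limma-trend).

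**Figure D2:**
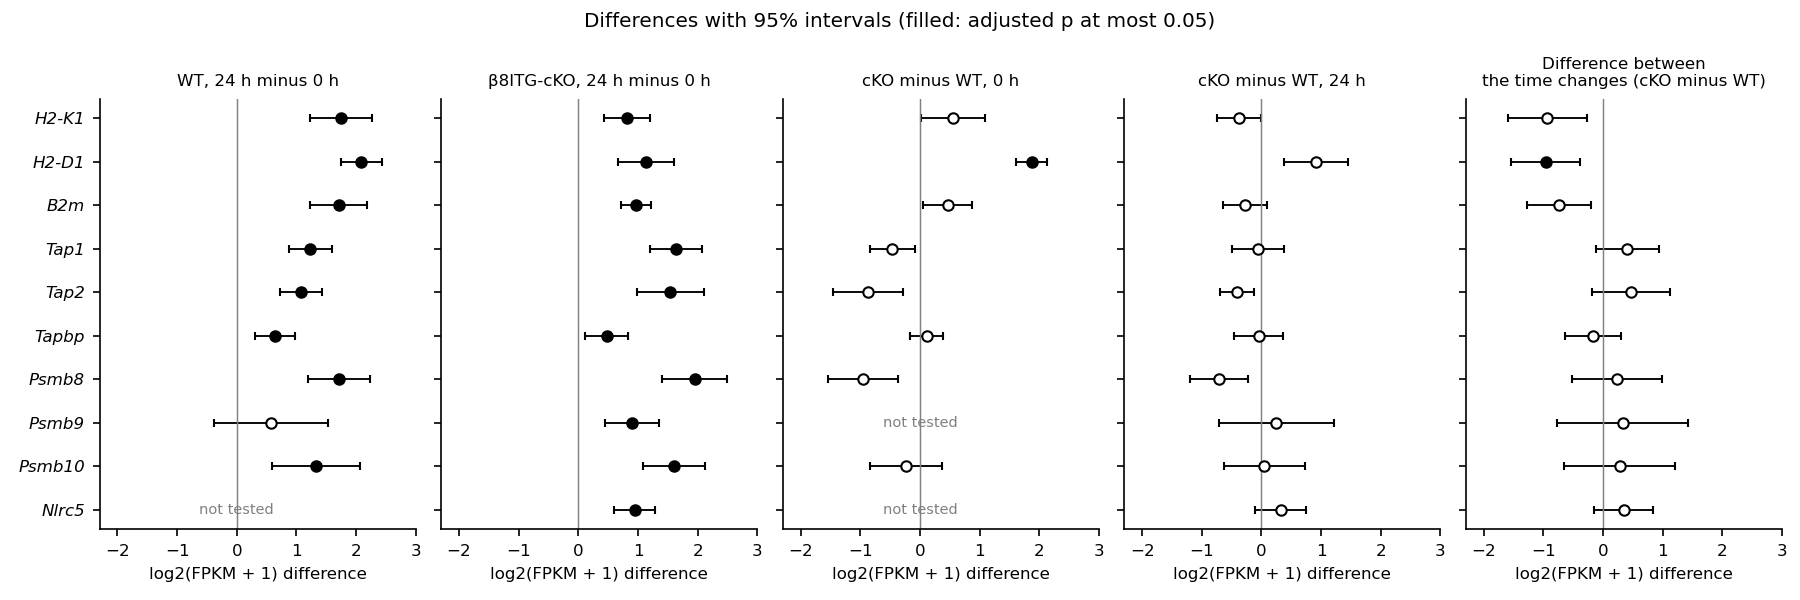
Differences in log2(FPKM + 1) (x axis) of the 10 genes (rows) in 5 comparisons (panels), with 95% limma intervals; filled points passed at an adjusted p of at most 0.05, and genes left out by the filter on low values are marked. The time panels lie right of 0, H2-D1 alone is filled between the genotypes at 0 h and in the difference between the time changes, and no point is filled at 24 h.

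The comparison of the genotypes at 0 h asked how the pathway stood at the time of surgery. Of the 8 genes tested, 1 differed, where 6.94% of all 14708 genes passed (4.18% as higher in β8ITG-cKO). That gene was H2-D1, with 9.77 to 11.1 FPKM in WT and 36.6 to 44.0 in β8ITG-cKO, a 3.92-fold higher mean (log2 difference 1.87, SE 0.11, adjusted p = 0.000321, limma-trend). It ranked 9 among the 14708 genes by p-value, and 29 of the 615 genes that passed as higher had a larger difference. The call was kept without each library in turn, with differences from 1.82 to 1.96 and adjusted p from 0.00103 to 0.00526.

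The other heavy chain gene and the light chain gene had positive differences at 0 h that did not pass. H2-K1 differed by 0.56 (SE 0.23, adjusted p = 0.193, limma-trend), with overlapping ranges, and B2m by 0.47 (SE 0.18, adjusted p = 0.16), with all β8ITG-cKO libraries above all WT libraries, and passed without WT 0 h replicate 2 (0.65, adjusted p = 0.046). Transporter and proteasome genes had negative differences that did not pass: Tap1 by -0.46 (SE 0.16, adjusted p = 0.13), Tap2 by -0.87 (SE 0.26, adjusted p = 0.0856) and Psmb8 by -0.95 (SE 0.25, adjusted p = 0.0652), each with all β8ITG-cKO libraries below all WT libraries. Without β8ITG-cKO 0 h replicate 1, Psmb8 passed as lower (-1.21, adjusted p = 0.0402). Of the 8 tested genes, 2 did not overlap with β8ITG-cKO higher (18.0% of all genes tested) and 3 with β8ITG-cKO lower (12.8%). Tapbp (0.12, 95% interval -0.16 to 0.39) and Psmb10 (-0.23, 95% interval -0.83 to 0.38) overlapped, and Psmb9 and Nlrc5 were below the filter. With 1 model over all 12 libraries, Tap2 (adjusted p = 0.0347) and Psmb8 (adjusted p = 0.0434) passed as lower too, so 3 of 8 differed.

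At 24 h PCS, 0 of 10 genes passed between the genotypes in limma-trend, where 6.29% of all 15366 genes did (867 higher and 99 lower in β8ITG-cKO, or 770 and 226 after rescaling to the same median). At an unadjusted p under 0.05 there were 4, where 20.4% of all genes were, with H2-D1 higher and H2-K1, Tap2 and Psmb8 lower in β8ITG-cKO, and the same 4 had ranges that did not overlap (26.5% of all genes did so in either direction). H2-D1 was 1.95-fold higher by the means (log2 difference 0.92, SE 0.23, adjusted p = 0.0618), and passed with 1 model over all 12 libraries (adjusted p = 0.00966). Psmb8 differed by -0.71 (SE 0.21, adjusted p = 0.0961), Tap2 by -0.41 (SE 0.12, adjusted p = 0.102) and H2-K1 by -0.37 (SE 0.16, adjusted p = 0.241). B2m differed by -0.27 (95% interval -0.64 to 0.09), Nlrc5 by 0.32 (-0.10 to 0.75) and Psmb9 by 0.25 (-0.72 to 1.21). For Tap1 the interval was -0.49 to 0.38, for Tapbp -0.46 to 0.37 and for Psmb10 -0.63 to 0.73, so changes of these sizes in either direction were not distinguishable with 3 libraries a group.

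Whether the rise after surgery itself differed by genotype was tested as an interaction over the 12 libraries, in which 9.39% of all 15262 genes passed (2.56% with the lower change in β8ITG-cKO, and 1043 higher and 390 lower, or 1098 and 650 after rescaling). The mean of H2-D1 went from 10.5 to 48.4 FPKM in WT and from 41.4 to 94.4 in β8ITG-cKO, so in FPKM the rise was not smaller there. On the log2 scale H2-D1 rose less in β8ITG-cKO, by -0.96 (SE 0.27, adjusted p = 0.0441, limma-trend), as 1 of the 10 genes. This call was kept in 2 of 12 fits that each left out 1 library (differences from -1.20 to -0.80, adjusted p from 0.0143 to 0.102), those without WT 24 h replicate 1 and without β8ITG-cKO 24 h replicate 3. H2-K1 (-0.93, SE 0.30, adjusted p = 0.0781) and B2m (-0.74, SE 0.24, adjusted p = 0.0821) did not pass with all libraries. H2-K1 passed without WT 0 h replicate 3 (adjusted p = 0.0198) and B2m without WT 0 h replicate 2 (adjusted p = 0.0282). The transporter, proteasome and transactivator genes had positive values from 0.24 to 0.46, none of which passed, and Tapbp was at -0.16. The time changes and the genotype differences share libraries, so these values are not independent of those above.

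The balance between the heavy chains is given as a description, with no test. H2-D1 made up 36.9, 36.0 and 27.8% of the summed FPKM of H2-D1 and H2-K1 in WT at 0 h and 39.6, 42.6 and 37.3% at 24 h. In β8ITG-cKO it made up 48.7, 64.8 and 56.5% at 0 h and 58.6, 55.6 and 71.2% at 24 h. Every β8ITG-cKO library was above every WT library, and within a genotype the shares at the 2 times overlapped only in β8ITG-cKO. Part of these sequences cannot be told apart by short reads: 14.3% of the 50-base stretches of the H2-D1 transcript also occurred in transcripts of other genes, 5.31% in H2-K1, and 8.79% of those of H2-K1, 6.94% in H2-D1. How the deposited values split such reads is not known, so levels of both genes carry that uncertainty, while B2m, Psmb8, Psmb9, Psmb10 and Nlrc5 shared no such stretch.

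**Figure D3:**
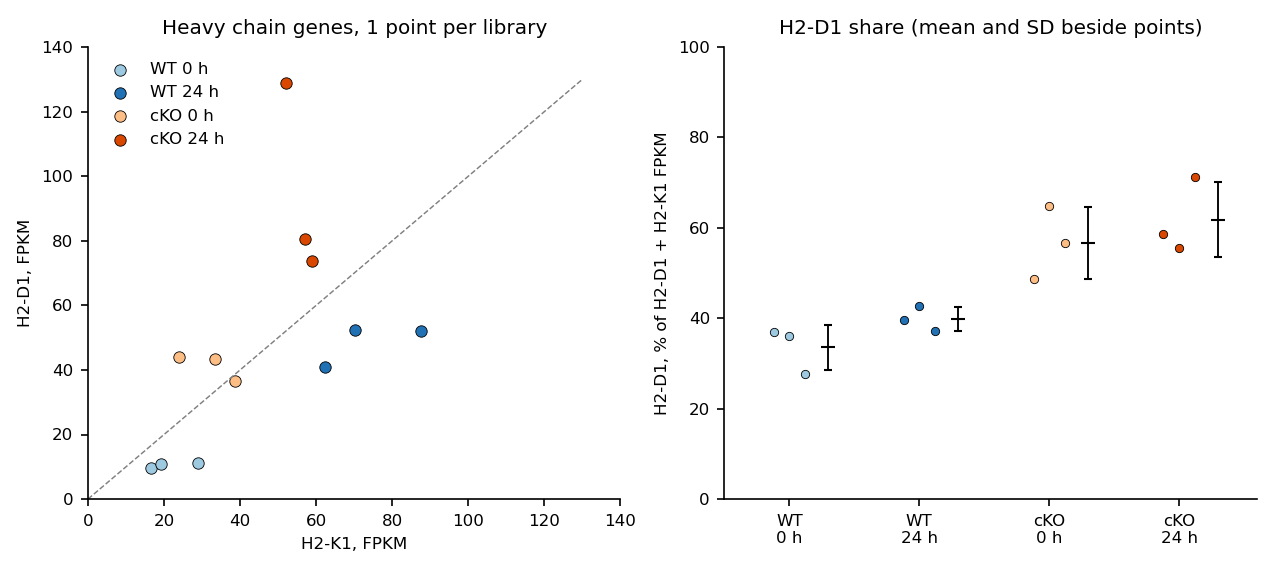
Left, H2-D1 (y axis, FPKM) against H2-K1 (x axis, FPKM) in the 12 libraries, 1 point each, with the line of equal levels dashed; right, H2-D1 as a percent of the summed FPKM of both genes, with the mean and SD of 3 libraries beside the points. WT libraries lie below the line at both times (27.8 to 42.6%), and β8ITG-cKO libraries lie above it, apart from 1 library at 0 h (48.7%).

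The inducible share of the catalytic proteasome subunits, taken over all 3 together, was larger at 24 h in each genotype and is given as a description, with no test. Psmb8, Psmb9 and Psmb10 together made up 5.43, 4.73 and 7.55% of the summed FPKM of all 6 catalytic subunit genes in WT at 0 h and 10.4, 15.6 and 15.8% at 24 h. In β8ITG-cKO they made up 5.46, 3.78 and 1.98% at 0 h and 15.9, 12.7 and 15.7% at 24 h. The times did not overlap in either genotype, and the genotypes overlapped at both times. Psmb9 alone, as a share of Psmb9 and Psmb6, did overlap in time in WT, at 0.336 to 2.53% at 0 h and 0.533 to 6.11% at 24 h. The constitutive partners Psmb5, Psmb6 and Psmb7 passed in 0 of 3 cases in every comparison in limma-trend. At an unadjusted p under 0.05 there were 2 of 3 in WT over time, 0 in β8ITG-cKO over time and at 0 h, 3, all lower in β8ITG-cKO, between the genotypes at 24 h, and 0 for the difference between the time changes. The share of all genes at that threshold was 42.6% in WT and 53.7% in β8ITG-cKO over time, 24.0% between the genotypes at 0 h, 20.4% at 24 h and 24.2% for the difference between the time changes. Psmb8 reached 30.7 ± 6.69% of Psmb8 and Psmb5 in WT at 24 h (SD, n = 3) and 30.4 ± 3.21% in β8ITG-cKO, although its own FPKM was lower there in every β8ITG-cKO library than in any WT library. Psmb5 had a median of 23.3 FPKM in WT at 24 h and 13.2 in β8ITG-cKO.

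**Figure D4:**
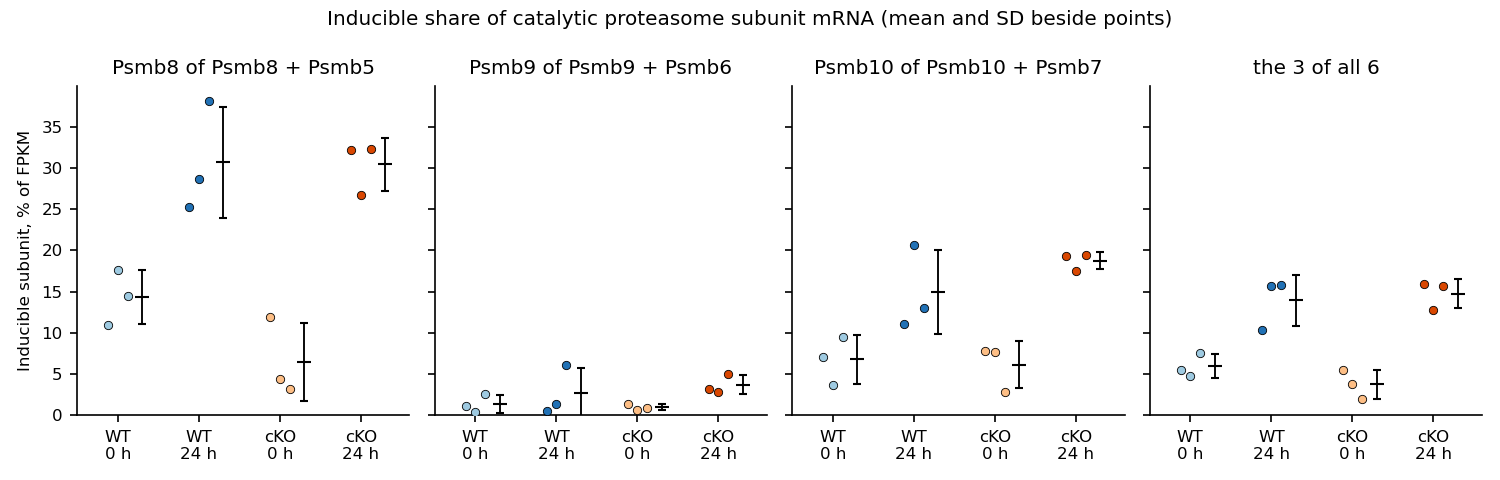
FPKM of each inducible catalytic proteasome subunit as a percent of its sum with the constitutive subunit it replaces, and of the 3 inducible of all 6 (y axis, percent), by genotype and hours PCS (x axis); points are libraries, with the mean and SD of 3 beside them, cut at 0. The share of all 3 was 5.90 ± 1.47% in WT and 3.74 ± 1.74% in β8ITG-cKO at 0 h, and 14.0 ± 3.09% and 14.8 ± 1.74% at 24 h.

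Other genes of the pathway were read from lists set by function. Of all genes tested, 20.9% passed as higher over time in WT and 35.4% in β8ITG-cKO, with medians of 0.16 and 0.23. Between the genotypes 6.94% passed at 0 h and 6.29% at 24 h, and 24.0% and 20.4% were at an unadjusted p under 0.05. Counts near these shares are not results about a list. Of the nonclassical and other class I genes, 3 of 11 tested rose in WT (H2-Q10, H2-T22 and H2-T23), with a list median of 0.44, and 8 of 11 in β8ITG-cKO, where Mr1 fell, with a median of 1.03. H2-T23, which encodes Qa-1, a ligand of natural killer cell receptors, read 1.82 to 2.88 FPKM in WT at 0 h and 7.81 to 8.54 at 24 h (log2 difference 1.46, SE 0.17, adjusted p = 0.00113, limma-trend), and rose by 1.48 in β8ITG-cKO (SE 0.17, adjusted p = 0.000342). Between the genotypes 0 of 10 passed at 0 h and 0 of 12 at 24 h, with 2 at an unadjusted p under 0.05 each time. H2-T22 was among these at 0 h, 1.91-fold higher by the means in β8ITG-cKO without overlap (log2 difference 0.55, SE 0.21, adjusted p = 0.155). H2-Q1, left out of the 0 h test by the filter, read 0.0540 to 0.142 FPKM in WT and 0.651 to 0.702 in β8ITG-cKO, 7.28-fold higher without overlap, and 7.70% of its 50-base stretches occurred in H2-D1. Several of these genes share much of their sequence with each other, up to 44.7% of the stretches in H2-T22, and their single values are uncertain.

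The next list holds chaperones that fold and load class I molecules and enzymes that trim their peptides. Of the 8, 6 rose in WT, Calr, Canx, Pdia3, Erap1, Hspa5 and Lap3 (list median 0.71), and 3 in β8ITG-cKO, Calr, Tapbpl and Hspa5 (0.38). Calreticulin (Calr) read 129 to 164 FPKM in WT and 282 to 302 in β8ITG-cKO at 0 h, a difference of 1.04 (SE 0.12, adjusted p = 0.00562, limma-trend), and Pdia3, which encodes ERp57 of the peptide-loading complex, differed by 0.68 (SE 0.11, adjusted p = 0.0172). Hspa5, the chaperone BiP, was the other of the 3 that were higher in β8ITG-cKO at 0 h. The rise with time was smaller in β8ITG-cKO for Calr (-0.86, adjusted p = 0.0317) and Pdia3 (-0.68, adjusted p = 0.0499), and at 24 h 0 of 8 differed, with 0 at an unadjusted p under 0.05. Many proteins other than class I use these chaperones.

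Of 4 genes for proteasome activator and assembly factors, 3 rose in WT (Psme2, Psme3 and Pomp) and 2 in β8ITG-cKO (Psme2 and Psme3), with medians of 0.78 and 0.45. Psme2, which encodes the PA28β activator, read 16.6 to 19.2 FPKM in WT at 0 h and 28.3 to 45.0 at 24 h (log2 difference 0.92, SE 0.19, adjusted p = 0.00996, limma-trend). Of 11 other core subunits of the 20S proteasome, 6 rose in each genotype, with medians of 0.66 and 0.39. Of the class II presentation genes, 1 of 6 tested rose in WT, Cd74, the invariant chain (1.61, SE 0.19, adjusted p = 0.00141), and 3 of 6 in β8ITG-cKO, H2-Aa, H2-Ab1 and Cd74. Between the genotypes 0 of 6 class II genes passed at 0 h. At 24 h 1 of 6 passed, H2-DMb1, lower in β8ITG-cKO without overlap (means of 1.26 against 2.86 FPKM), where 6.29% of all genes tested passed. Ciita, the class II transactivator, was at or below 0.347 FPKM in all 12 libraries.

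Of the 7 interferon ligand genes in the list, Ifng, Ifnb1, Ifna4, Ifnl2 and Ifnl3 were listed at 0 in all 12 libraries. Ifnk, a type I interferon gene, read 0.482, 0.0978 and 0.626 FPKM in WT and 0.976, 0.652 and 0.772 in β8ITG-cKO at 0 h. At 24 h it was listed at 0 in all WT libraries and read 0 to 0.156 in β8ITG-cKO. It was below the filter over time and not tested there. Its listed locus spans 3 genes, so these low values are uncertain. Ifne was above 0 in replicate 2 of WT at 0 h (0.131 FPKM) and at 24 h (0.199) and listed at 0 elsewhere. Of 12 receptor and relay genes through which interferons raise class I, 7 rose in WT and 11 in β8ITG-cKO, with medians of 0.62 and 0.67. Irf9, the DNA-binding part of the type I interferon response complex, read 2.25, 2.91 and 3.45 FPKM in WT at 0 h and 8.75, 16.4 and 11.8 at 24 h, and rose by 1.75 in WT (SE 0.23, adjusted p = 0.00207, limma-trend) and 1.62 in β8ITG-cKO (SE 0.12, adjusted p = 5.71e-05). Its partner Stat2 rose by 1.30 in WT and 1.25 in β8ITG-cKO.

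Between the genotypes, 1 of the 12 passed at 0 h and 0 at 24 h in limma-trend, where 6.94% and 6.29% of all genes tested did. At an unadjusted p under 0.05 there were 4 and 1, where 24.0% and 20.4% of all genes were. The 1 at 0 h was Irf1, which was lower in β8ITG-cKO. Irf1 binds IRF elements and drives class I and immunoproteasome genes under interferon-γ. It read 13.8, 8.17 and 6.70 FPKM in WT at 0 h against 2.68, 2.73 and 2.23 in β8ITG-cKO (-1.52, SE 0.23, adjusted p = 0.0142), and 6.26, 8.48 and 7.66 against 8.47, 6.28 and 8.94 at 24 h. Irf1 therefore rose with time in β8ITG-cKO (1.32, SE 0.15, adjusted p = 0.000324), did not pass in WT (-0.27, 95% interval -0.85 to 0.31), and the time changes differed (1.59, SE 0.31, adjusted p = 0.0112). Of the 8 genes for factors that bind the X and Y boxes, 2 rose in WT (Nfya and Creb1) and 4 in β8ITG-cKO (Nfya, Nfyc, Creb1 and Atf1). Of all genes tested, 20.9% and 35.4% passed as higher. At 0 h 1 of the 8, the Y box factor Nfya, was higher in β8ITG-cKO (0.64, SE 0.14, adjusted p = 0.0326, limma-trend), where 4.18% of all genes were.

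**Figure D5:**
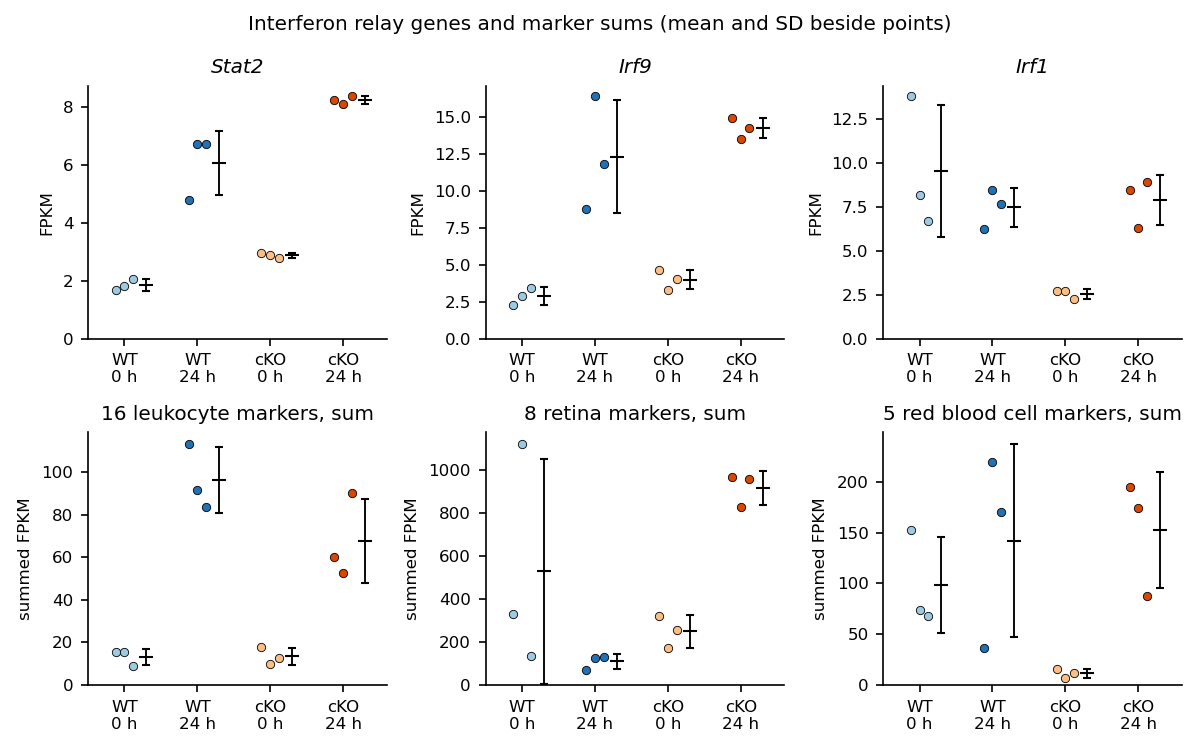
FPKM of the interferon relay genes Stat2, Irf9 and Irf1, and summed FPKM of 16 leukocyte, 8 retina and 5 red blood cell markers (y axes, from 0), by genotype and hours PCS (x axis); points are libraries, with the mean and SD of 3 beside them, cut at 0. Leukocyte sums are 8.99 to 17.8 at 0 h and 52.8 to 113 at 24 h, and retina sums are 825 to 966 in β8ITG-cKO at 24 h against 71.3 to 132 in WT.

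Markers of other cells moved with some of these results. The 16 leukocyte markers summed to 8.99 to 15.6 FPKM in WT at 0 h and 83.6 to 113 at 24 h, and to 9.92 to 17.8 and 52.8 to 90.0 in β8ITG-cKO. Of 11 tested, 9 rose in WT and 10 in β8ITG-cKO, while between the genotypes 0 of 6 passed at 0 h (1 at an unadjusted p under 0.05) and 0 of 11 at 24 h (3, all lower in β8ITG-cKO). For the difference between the time changes 1 of 11 passed, S100a9, with the lower change in β8ITG-cKO, where 9.39% of all genes passed. At an unadjusted p under 0.05 there were 4 of 11, all with the lower change in β8ITG-cKO, where 24.2% of all genes were. Ptprc, which encodes CD45 of all leukocytes, went from 0.0276 to 0.326 FPKM at 0 h to 1.26 to 1.34 at 24 h in WT, and Itgam, the myeloid integrin CD11b, rose by 3.09 (SE 0.17, adjusted p = 6.57e-05, limma-trend). Csf1r of macrophages, with means of 2.11 and 1.84 FPKM, and Lyz2 did not pass in WT. The sums at 24 h hold much from the neutrophil genes S100a8 and S100a9, with means of 13.9 and 24.7 FPKM in WT and 4.33 and 10.5 in β8ITG-cKO. Of the lymphocyte genes, Cd3e, Nkg7 and Cd79a were listed at 0 in all WT 24 h libraries, and Cd8a read 0 to 0.0337 FPKM there. In β8ITG-cKO at 24 h the highest values were 0.0292 FPKM for Cd3e, 0.0125 for Cd8a, 0.0587 for Nkg7 and 0.0640 for Cd79a. Leukocytes carry class I themselves, and the part of these markers' cells in the rise of the 10 genes was not tested.

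The 8 lens markers summed to 13619 to 40418 FPKM in WT at 0 h and 18029 to 21656 at 24 h, and to 40406 to 43161 and 11636 to 14094 in β8ITG-cKO. The sum of 13619 is that of WT 0 h replicate 2, which listed 0 for Cryaa. The other WT 0 h libraries read 28167 and 24296 FPKM for Cryaa, and the WT 24 h libraries 13612 to 16101. In WT 3 of 8 fell with time, Cryab, Foxe3 and Prox1, and Cdh1 rose (0.44, adjusted p = 0.0474, limma-trend). With that 0 included, Cryaa had a difference of 4.03 in WT (SE 3.52) and did not pass, so the WT count depends on it. In β8ITG-cKO 6 of 8 fell (list median -1.20), Cdh1 among them (-1.15, adjusted p = 0.000119), and Epha2 rose. Between the genotypes Foxe3 and Cdh1 were higher in β8ITG-cKO at 0 h and Cdh1 lower at 24 h, and their part in the results for the 10 genes was not tested.

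The 8 retina markers were all higher in β8ITG-cKO than in WT at 24 h (median difference 3.11) and rose with time in β8ITG-cKO, and 0 of 8 passed between the genotypes at 0 h, with 0 at an unadjusted p under 0.05. The 5 red blood cell markers were all lower in β8ITG-cKO at 0 h (median -2.35), with sums of 68.0 to 153 FPKM in WT and 6.52 to 15.8 in β8ITG-cKO, and rose with time in β8ITG-cKO. Of 4 endothelial markers tested over time in β8ITG-cKO, 3 rose, Pecam1, Cdh5 and Kdr, and Egfl7 fell (-0.91, SE 0.22, adjusted p = 0.0125, limma-trend), as it did in WT (-1.03, SE 0.20, adjusted p = 0.00777). Between the genotypes 0 of 2 endothelial markers passed at 0 h. At 24 h 1 of 4, Kdr, passed as higher in β8ITG-cKO, where 6.29% of all genes passed. At an unadjusted p under 0.05 there were 3, all higher in β8ITG-cKO, where 20.4% of all genes were. The 5 endothelial markers summed to 8.13 to 9.89 FPKM in β8ITG-cKO at 24 h and 1.72 to 3.67 in WT. Of the cornea and iris markers, 0 of 4 passed at 0 h (2 at an unadjusted p under 0.05, lower in β8ITG-cKO), and at 24 h 1 of 4, the pigment cell gene Pmel, was lower in β8ITG-cKO (-1.18, SE 0.19, adjusted p = 0.0129). The part of any of these in the difference of H2-D1 was not tested.

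By the mean of their standardized log2 levels over the 12 libraries, the genes most like the 10 together were Parp14 (Pearson r = 0.989), Trim25 (0.985), Oasl2 (0.985), Tnfrsf1b (0.983), Ltbp1 (0.982), Znfx1 (0.981), Adck4 (0.981), Steap4 (0.981), Ccl3 (0.978) and Chil1 (0.978). These 10 were named because they had the highest values of the 10872 genes compared. The libraries form 4 groups that share times and genotypes, and 698 of the 10872 reached r = 0.9, so a value of 0.9 is not rare here. Parp14 had means of 0.859 and 5.95 FPKM in WT at 0 h and 24 h and 0.685 and 4.52 in β8ITG-cKO. Among the 10 genes themselves, Tap1 (0.952) and Nlrc5 (0.948) were closest to that mean, and H2-D1 (0.736) and Psmb9 (0.768) were farthest. Each of the 10 is itself part of the mean, so these values cannot be set beside those of other genes. H2-D1 had its lowest correlations with Tap2 (0.315) and Psmb8 (0.385), the genes that were lower in every β8ITG-cKO library than in any WT library at both times.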

How the data were processed

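RNA of capsules with attached LCs was sequenced as stranded total RNA libraries made from low input, with 3 biological replicates per condition by the study's methods, so p-values measure the spread between these pooled libraries. Per the labels, the submitters' processing notes name cutadapt 1.12, TopHat2 2.1.0, Cuffdiff 2.2.1 and the builds mm10 and GRCm38.p5. The authors deposited 4 tables of 2 conditions each, with the FPKM of every library that Cuffdiff estimated from read pairs. The same tables hold 16 columns of group values, beside Cuffdiff's fold changes, p-values and q values, none of which was used. Read counts were not analysed here, so the precision set by counting is unknown, and whether strand was used in counting is not given in the sources used here. Among the pathway genes, the loci listed for H2-K1, B2m, Tapbp and Nlrc5 span neighboring genes, as do those of some list genes, Ifnk among them. A value of 0 may be a failed estimate.

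Genes whose average reached 0.5 FPKM in the libraries compared entered limma-trend with eBayes (limma 3.58.1, run in R 4.3.3) on log2(FPKM + 1), 2 groups at a time, and over 12 libraries for the interaction, with Benjamini-Hochberg adjustment over all genes tested. The pipeline was tested on simulated data. Other settings were a pseudocount of 0.1, no filter or a filter at 2 FPKM, rescaling to the same median, 1 fit over 12 libraries, robust eBayes, the replicate number as a block, the study's size criteria (means over 2-fold and 2 FPKM apart) and leaving out each library. Positions are from the GRCm38 annotation, in which 73.9% of the files' symbols were found and 99.9% of those overlapped the files' loci. Values were tabulated and drawn with Python 3.11.15, pandas 2.3.3, numpy 2.4.6 and matplotlib 3.10.9.

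The 10 genes and the lists were chosen by function with earlier results of these data known. Named beside the 10 genes are list members that passed in the comparison described, the constitutive subunits, Irf1, interferon genes, Cd74, Ciita, Ptprc, list members at 0, the 10 genes of most similar pattern and Itgb8. H2-Q1, H2-T22 at 0 h, Ifnk and Ifne were named after their values were seen. A further item is not reported here.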

Additional observations from a re-analysis of the deposited data

Results flagged for a closer look

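The change of H2-D1 with time differed between the genotypes in the test of that difference itself: it was -0.96 on the log2(FPKM + 1) scale in β8ITG-cKO relative to WT (SE 0.27, adjusted p = 0.0441, limma-trend over 12 libraries). H2-D1 was higher at 24 h than at 0 h in every library of each genotype, by 2.09 in WT and 1.13 in β8ITG-cKO, and the level at 0 h was 10.5 ± 0.696 FPKM in WT and 41.4 ± 4.17 in β8ITG-cKO (SD, n = 3). The difference between the changes passed in 2 of the 12 fits that each left out 1 library. H2-D1 was 1 of 10 pathway genes that passed in this test, near the share of 9.39% over all 15262 genes. By mean FPKM the rise was not smaller in β8ITG-cKO (41.4 to 94.4) than in WT (10.5 to 48.4). Strain and deletion cannot be told apart here.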

How the results depend on the processing

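Of the 5 counts of pathway genes that passed, the rise in WT stayed at 7 to 8 genes and the rise in β8ITG-cKO at 8 to 10 under every alternative but the study's size criteria, which 5 of the 10 genes met in β8ITG-cKO. Leaving out each library in turn gave 7 to 8 genes in WT, 9 to 10 in β8ITG-cKO, 0 in each fit between the genotypes at 24 h, 1 to 2 at 0 h and 0 to 1 for the interaction. In 1 fit over 12 libraries the count was 1 at 24 h (H2-D1) and 3 at 0 h. After rescaling to the same median it was 2 at 0 h, with Psmb8 lower (adjusted p = 0.0481), and 2 for the interaction, with B2m (adjusted p = 0.0377) beside H2-D1. With no filter on low values the interaction had 0 (H2-D1 adjusted p = 0.0823), and Psmb10 did not pass in WT (adjusted p = 0.0634). The cause of these changes was not tested. A total of 6 differences turned sign under an alternative, none of them past the threshold: Psmb10 at 24 h was -0.00684 after rescaling, and without single libraries the ranges at 24 h were -0.12 to 0.72 for Psmb9, -0.13 to 0.41 for Psmb10, -0.18 to 0.12 for Tap1 and -0.20 to 0.0852 for Tapbp, at 0 h -0.40 to 0.0404 for Psmb10, and for the interaction of Psmb9 -0.0383 to 0.80. Same-numbered libraries did not deviate together in the pairs of groups compared (r from -0.249 to 0.096). This cannot show whether the numbers mark a pairing in the experiment. The replicate block left the 5 counts at 8, 10, 0, 1 and 1 and changed the call of 0 of 47 differences. Over all genes, between the genotypes at 0 h, 254 genes passed with no filter and 269 with the block against 1020, and at 24 h 574 passed at the higher filter and 1642 in 1 fit over 12 libraries against 966. For the interaction 930 passed at the higher filter against 1433. The depth behind each FPKM is unknown, so it was not possible to say how much of the spread of Psmb9 and Nlrc5 is counting error.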
